A study of Felis catus with 12 samples.

Results

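The genes described are the translation initiation and elongation factors of the cat left ventricle, taken as every listed gene whose symbol begins with EIF1 to EIF6 or with EEF1 or EEF2. The rule found 63 of the 30785 genes listed. Of these, 61 had a read in at least 1 of 12 libraries and 60 passed the filter on low values, as did 8715 genes in all. The filter required 10 reads or more in 3 or more of the 10 libraries whose outcome is known. EEF1AKMT3, a methyltransferase of eEF1A, and EIF4E1B, a germ-line relative of the cap-binding protein, had 0 reads in every library. The limit that a count of 0 allows, 3 reads, corresponded to a level between 1.33 CPM and 3.80 CPM (reads scaled to a common library total), depending on the library. EIF2AK2, the kinase PKR that is activated by double-stranded RNA, had 0 to 7 reads and did not pass the filter.

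Translation of an mRNA starts when eIF2 carries the initiator tRNA to the small ribosomal subunit, while the eIF4 proteins bind the cap and unwind the leader of the mRNA and eIF3 holds the complex together. eEF1A then delivers each aminoacyl-tRNA to the ribosome, the eEF1B subunits recharge eEF1A with GTP, and eEF2 moves the ribosome along the mRNA. Heart muscle is known for carrying both eEF1A isoforms, of which eEF1A2 is the form of adult muscle and neurons. The initiation step is under control of eIF2 kinases and of eIF4E-binding proteins, which hold eIF4E away from eIF4G until they are phosphorylated downstream of mTOR.

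RNA was isolated post-mortem from the left ventricular free wall of client-owned cats of several breeds, and RNA molecules were read directly, without conversion to cDNA, on Oxford Nanopore flow cells. Each cat gave 1 library, and 4 barcoded libraries were run on each of 3 flow cells. Flow cell A held cats 11, 23, 30 and 31, flow cell B held cats 10, 15, 35 and 36, and flow cell C held cats 37, 38, 29 and 22. By the outcome listed for the cat number, 6 libraries came from cats with congestive heart failure (HF; cats 11, 15, 30, 31, 35 and 37), 3 from cats with arterial thromboembolism (ATE; cats 10, 23 and 38) and 1 (cat 36) from an animal whose death had no known cardiac cause. The libraries labelled 22 and 29 carry the numbers of cats that are not in the study's list of sequenced cats, so they entered only the comparison of flow cells. No cat received an experimental treatment, and the groups rest on clinical outcome rather than on a genetic diagnosis. Which cats shared a flow cell and any effect of the flow cell itself cannot be told apart.

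The libraries held 789257 to 2263110 reads on genes, 15753626 in all, and cat 11 was the deepest. The values are normalised read counts, meaning reads divided by the size factor of the library. They are not per length, so levels are compared between libraries for the same gene and not between genes. The tissue label was checked against 7 cardiomyocyte markers, and the 6 in the table took 9.30% to 14.8% of reads. In bulk tissue, fewer cells of a type and less RNA per cell cannot be told apart.

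Between 2.10% and 2.90% of the reads fell on the factors together (median 2.23%), and cat 35 had the highest share. EEF1A2 had 20.3% of all reads on these factors, EEF1A1 had 15.3%, EEF1G had 13.2% and EEF2 had 8.29%, so that 4 elongation genes held 57.0% of them. The median factor that passed the filter had 108 reads per library, against 25.5 for the median tested gene. Across the 12 libraries the coefficient of variation (SD as a percentage of the mean) had a median of 31.7% for the tested factors and 40.0% for all tested genes. Among genes with a median of at least 100 reads the corresponding values were 29.3% for 32 factors and 29.4% for 1507 genes. EIF1, which guards the choice of start codon, varied least, at 9.38%. EEF2KMT, the methyltransferase of eEF2, varied most, at 97.6%, on 0 to 47 reads per library.

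The common movement of the factors across libraries was described for each group. For eIF3, the median Spearman's rho between 2 subunits over the 12 libraries was 0.199, with 46 of 66 pairs positive. It was 0.0629 over all 1770 pairs of tested factors and 0 over all pairs of tested genes. For the 7 elongation factors the median was -0.0280, with 10 of 21 pairs positive. It was 0.280 for the 3 genes EIF5A, EIF5A2 and EIF6, 0.154 for the eIF4 factors, 0.161 for the modifying enzymes and 0.147 for the eIF2 kinases. The medians were 0.0210 for start codon recognition, 0.0455 for eIF2B and 0.0664 for the eIF4E-binding proteins. No difference between groups was tested. These correlations share the libraries and their scaling and are a description.

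The first comparison was between flow cells, the grouping that the sample labels give. The labels do not single out flow cell A. It was set against B and C together because earlier results of these data had called genes in that contrast. On flow cell A, the elongation factors took a smaller share of all reads and the factors of start codon recognition and of cap binding took a larger share than on flow cells B and C. The ranges of these shares did not overlap, but for elongation and start codon recognition those of the summed normalised read counts did, an alternative chosen after seeing the data. The 7 elongation factors took 1.06% of reads in cat 11, 1.36% in cat 23, 1.24% in cat 30 and 1.31% in cat 31, whereas the other 8 libraries lay between 1.37% and 1.99%, with a median of 1.56%. The 11 factors of start codon recognition took 0.202% to 0.254% on flow cell A and 0.131% to 0.189% on the other flow cells. The eIF4 factors took 0.311% in cat 11 and 0.205% to 0.208% in the other 3 libraries of flow cell A, against 0.0948% to 0.153% elsewhere. The largest 95% Wilson interval of such a share extended 0.0274 percentage points to either side for the elongation factors, which covers counting error only. Together, the factors took 2.16% to 2.27% on flow cell A, inside the range of the other libraries. In summed normalised read counts, the elongation factors had 11609.5 to 16662 on flow cell A and 16641 to 23760.1 elsewhere, where cat 31 lay above cat 22. The factors of start codon recognition had 2139.7 to 2772 against 1815 to 2146, where cat 23 lay below cat 35. The eIF4 factors had 2129 to 3401 against 1482.5 to 1747, without overlap. These shares and sums were not tested. They are weighted to the genes with many reads, and EEF1A2 alone had 20.3% of all reads on the factors. Its own counts did not overlap between the groups (1354 to 4521 against 5293 to 9904). The share of the elongation factors without EEF1A2 was not taken, so a shift of the whole group is not shown. Among the eIF4 factors, EIF4G2 had the most reads.

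**Figure D1:**
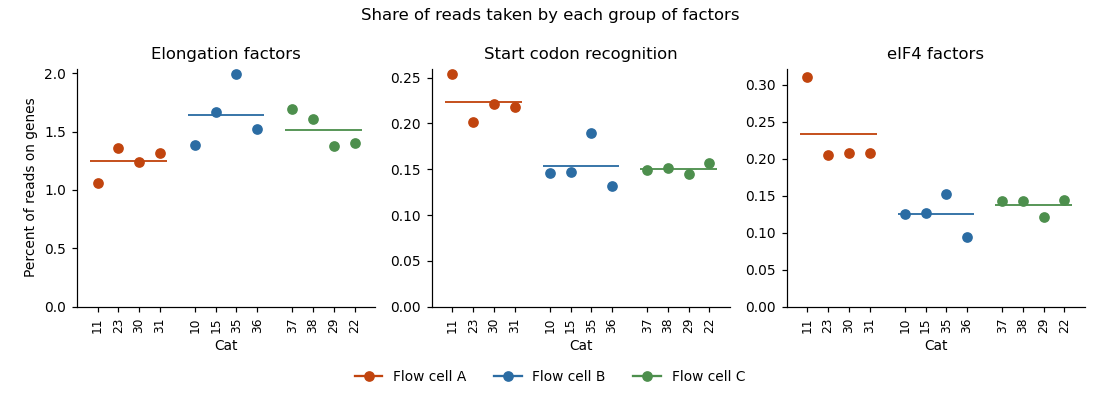
Percent of all reads on genes (vertical axis, starting at 0) taken by the elongation factors, the factors of start codon recognition and the eIF4 factors in each of 12 libraries, with the cat number on the horizontal axis, 1 point per library and the mean of each flow cell as a line. The 4 libraries of flow cell A lie below all others for elongation factors (1.06% to 1.36%) and above all others in the remaining panels. The elongation share is weighted to EEF1A2, which has the most reads of the group.

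By gene, 9 of the 60 tested factors differed between flow cell A and the other 8 libraries (limma on log2(value + 1), adjusted p under 0.05 over all 8715 genes), which is 15% of them against 5.12% of all tested genes. Of these, 4 were higher on flow cell A (1.62% of all genes were) and 5 were lower (3.5% of all genes were). Values of the groups did not overlap for 4 factors that lay higher on flow cell A (1.72% of all genes) and for 5 that lay lower (2.51%). The median tested factor had more reads than the median tested gene (108 against 25.5 per library), and these percentages were not compared at like depth. At an unadjusted p under 0.05 there were 23 factors, 38.3% of them against 21.4% of all tested genes, and edgeR called the same 9 factors. The median log2 difference was 0.14 over the factors and 0.03 over all tested genes, and it was above 0 for 38 of 60 factors. In CPM, which moved the median of all genes from 0.03 to 0.23, 8 factors were called higher and 3 lower, in place of 4 and 5. All 9 factors kept the direction of their difference in CPM and with TMM scaling. In CPM, EIF3J, EIF4E, EIF4EBP1 and EIF5A were called higher in addition, and EIF2B4 and EIF3D were no longer called. DESeq2 called the same 9 factors and also EIF5A (higher) and EEF2 (lower).

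The calls rested on a few libraries. Without cat 11, 1 of 60 factors was called (EEF1D), and without cat 31, 3 were called (EEF1D, EEF1E1 and EIF3K). Without any other single library, 7 to 9 were called, and without the libraries labelled 22 and 29, 9 were called. Over all tested genes, leaving out each library in turn gave 51 to 501 calls, against 446 with every library kept. Less the median of all genes, the median over the factors was 0.11, and without cat 31 it was 0.02.

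The largest fall relative to its error was that of EEF1D, the delta subunit of the exchange factor that recharges eEF1A. Its normalised read counts were 292 in cat 11, 302 in cat 23, 289.6 in cat 30 and 319 in cat 31, and in the other 8 libraries they ran from 418 through a median of 624 to 782. The 4 libraries of flow cell A lay close together and below every other library. This amounted to a log2 difference of -1.03 ± 0.18 (SE), a 2.05-fold lower level, with an adjusted p of 0.00683 from limma.

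EEF1A2, the muscle isoform of the tRNA-delivering factor, had normalised read counts of 1354 in cat 11, 4521 in cat 23, 4172 in cat 30 and 3822 in cat 31. In the other libraries its counts ran from 5293 through a median of 7415 to 9904, so that the groups did not overlap, and cat 11 was lowest by far. EEF1A2 thus had a log2 difference of -1.21 ± 0.28 (SE; limma, adjusted p = 0.0223). The difference was -0.81 without cat 11 (limma, adjusted p = 0.0945) and -1.31 without cat 31 (limma, adjusted p = 0.0514), and the call was also lost with no filter on low values and with flow cell A against C alone (adjusted p up to 0.100). EEF1A1, the isoform found in most tissues, had 3619.5 to 5556 on flow cell A and 2625 to 6509.7 elsewhere, with a log2 difference of 0.17 ± 0.25 (SE; limma, adjusted p = 0.730).

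Of the other elongation factors, EEF1G, the gamma subunit of the exchange factor, had a log2 difference of -0.59 (limma, adjusted p = 0.123) and EEF2 had -0.59 (limma, adjusted p = 0.0879). EEF1B2, the catalytic beta subunit, had -0.32 (limma, adjusted p = 0.377). EEF1E1 moved the other way. It is named as an elongation factor but is known as AIMP3, a scaffold protein of the complex of tRNA synthetases. Its counts were 223 in cat 11, 77.9 in cat 23, 63.1 in cat 30 and 164 in cat 31, against 29.9 to 55.2 with a median of 37.7 in the other libraries. The groups did not overlap, and the spread within flow cell A was wide. EEF1E1 had a log2 difference of 1.60 ± 0.30 (SE), 3.04-fold higher, with an adjusted p of 0.00874 from limma. Over the 7 elongation factors, 1 was higher, 2 were lower and 4 did not pass the test, with a median of -0.59.

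**Figure D2:**
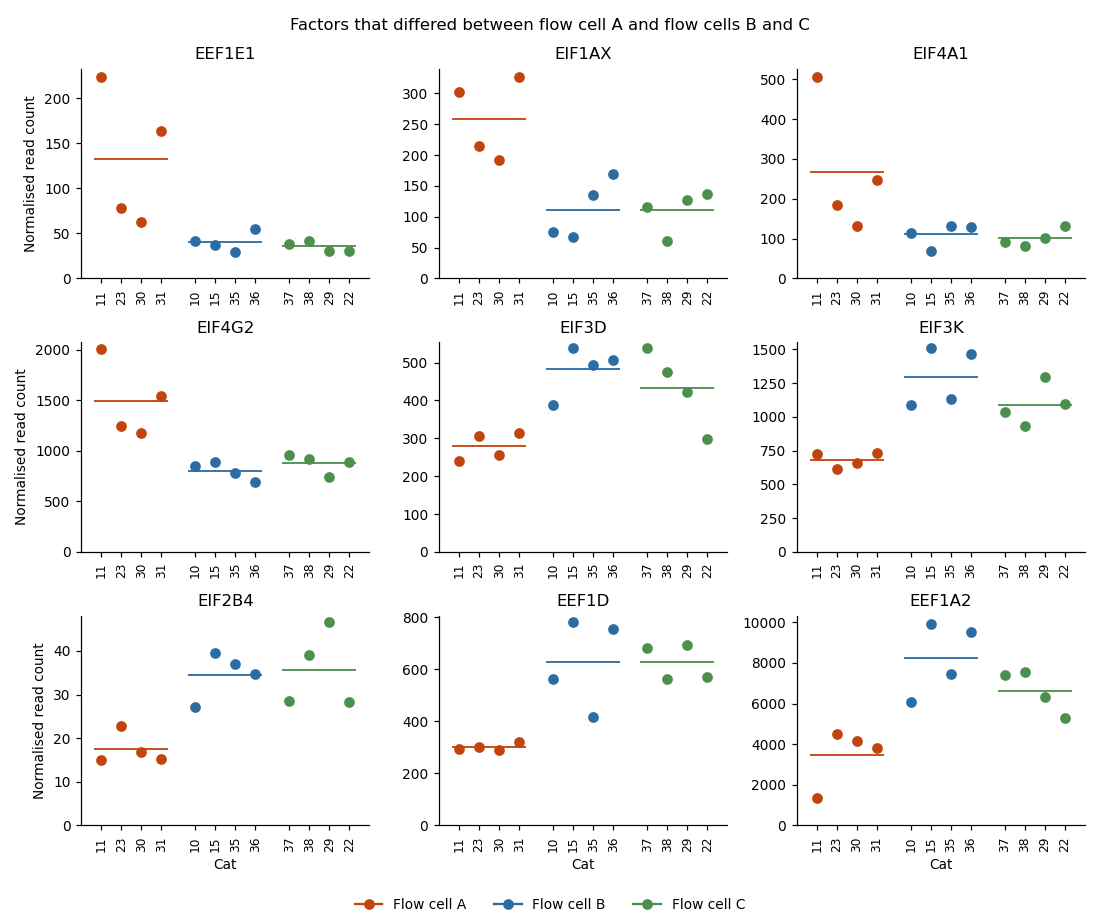
Normalised read counts (vertical axes, starting at 0) of the 9 factors that passed the test between flow cell A and flow cells B and C, for each library by cat number, with the mean of each flow cell as a line. For 7 of the 9 factors the 4 points of flow cell A do not overlap the other 8, and for EIF4A1 and EIF3D they do.

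The eEF1A isoforms were also compared within libraries, where the scaling cancels. EEF1A2 made up 23.8% of the reads on EEF1A1 and EEF1A2 in cat 11, 50.1% in cat 23, 53.5% in cat 30 and 40.8% in cat 31. On flow cell B its share was 60.4% in cat 10, 79.0% in cat 15, 53.4% in cat 35 and 77.2% in cat 36. On flow cell C it was 61.2% in cat 37, 73.5% in cat 38, 56.9% in cat 29 and 51.3% in cat 22. The 95% Wilson intervals extended at most 1.2 percentage points to either side. Cats 35 and 22 lay within the range of flow cell A. The mean log2 ratio of EEF1A2 to EEF1A1 was -0.50 on flow cell A and 0.89 elsewhere (exact permutation, two-sided, p = 0.0121, the smallest possible p being 0.00202; 0.0485 after adjustment over 8 ratios of related genes). Without cat 11 the difference moved from -1.39 to -0.99 and the adjusted p of the exact permutation test to 0.194. The coding sequences of both genes are known to be alike. How reads that fit both genes were counted was not examined here, so the shares carry this uncertainty.

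**Figure D3:**
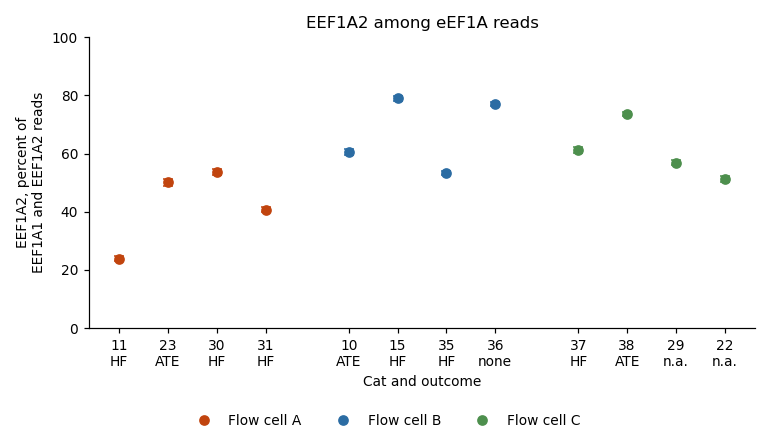
EEF1A2 as a percentage of the reads on EEF1A1 and EEF1A2 (vertical axis, 0 to 100) in each library, with cat number and outcome (HF, congestive heart failure; ATE; none, no known cardiac death; n.a., not assigned) on the horizontal axis and 95% Wilson intervals as bars, which are about the size of the points. Values run from 23.8% in cat 11 to 79.0% in cat 15, and cats with congestive HF are found at both ends.

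Among the factors of start codon recognition, EIF1AX, which helps the small subunit scan for the start codon, was higher on flow cell A. Its counts were 302 in cat 11, 215 in cat 23, 193 in cat 30 and 327 in cat 31, and 60.3 to 170.1 with a median of 122 in the other libraries. No library of flow cell A fell within the range of the others. For EIF1AX the log2 difference was 1.27 ± 0.28 (SE), 2.41-fold higher (limma, adjusted p = 0.0168). The other 10 factors of this group did not pass the test. The 3 subunits of eIF2, which carries the initiator tRNA, had log2 differences of 0.54 for EIF2S1, 0.39 for EIF2S2 and 0.54 for EIF2S3 (limma, adjusted p = 0.223, 0.338 and 0.225). EIF5, which makes eIF2 hydrolyse its GTP at the start codon, had 0.70 (limma, adjusted p = 0.111). EIF1 had 0.10 (limma, adjusted p = 0.759) and EIF5B, which joins the ribosomal subunits, had -0.19 (limma, adjusted p = 0.794). The median over the group was 0.26, with 8 of 11 above 0.

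In eIF2B, which recycles eIF2 by exchanging its GDP, only the delta subunit EIF2B4 passed the test. It had normalised read counts of 15 in cat 11, 22.8 in cat 23, 16.8 in cat 30 and 15.2 in cat 31 against 27.1 to 46.6 with a median of 35.9 elsewhere, without overlap. The log2 difference was -0.97 ± 0.23 (SE; limma, adjusted p = 0.0259), on 17 to 53 reads per library. EIF2B5, the catalytic epsilon subunit, had counts of 7.98 to 22.7 against 14.7 to 61.3 (limma, adjusted p = 0.115), while EIF2B1 and EIF2B2 had log2 differences of 0.49 and 0.56 (limma, adjusted p = 0.317 and 0.439). The 3 tested kinases of eIF2 did not pass: EIF2AK3, the kinase PERK of the endoplasmic reticulum, had 0.97 on 1 to 16 reads, EIF2AK1, which senses heme, had 0.17, and EIF2AK4, the kinase GCN2 that senses uncharged tRNA, had -0.21 (limma, adjusted p of 0.290 at the lowest).

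Of the 12 eIF3 subunits tested, EIF3K and EIF3D were lower on flow cell A and none was higher (EIF3C was not analysed here). EIF3K had normalised read counts of 722, 615, 661 and 735 in cats 11, 23, 30 and 31, below the 936 to 1510.0 (median 1112) of the other libraries. The groups did not overlap, and the log2 difference was -0.79 ± 0.17 (SE; limma, adjusted p = 0.0155). EIF3D, the subunit that can itself bind the cap, had 240.4, 305, 256 and 315 against 297 to 539 (median 483). Its groups overlapped through cat 22, and the log2 difference was -0.70 ± 0.19 (SE; limma, adjusted p = 0.0406). This call was lost in 11 of 12 fits that left out a library and in 5 of 12 other alternatives, with adjusted p up to 0.161 from limma and the difference between -0.81 and -0.49. EIF3G, which binds eIF4B, lay below the other libraries without overlap (214 to 297 against 298 to 434) but had a log2 difference of -0.46 (limma, adjusted p = 0.127). EIF3J, a loosely attached subunit, had 0.65 (limma, adjusted p = 0.109), and the other 8 subunits ran from -0.40 for EIF3L to 0.19 for EIF3M. The median over eIF3 was -0.12, with 5 of 12 above 0.

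Of the 11 tested eIF4 factors, 2 were higher on flow cell A and none was lower. EIF4G2, known as DAP5, is a relative of the scaffold eIF4G that lacks the part binding eIF4E. Its counts were 2009 in cat 11, 1242 in cat 23, 1173 in cat 30 and 1542 in cat 31, all above the 694 to 957 (median 866) of the other libraries. The log2 difference was 0.80 ± 0.18 (SE), 1.75-fold higher (limma, adjusted p = 0.0168). EIF4G1, the main scaffold, had -0.26 (limma, adjusted p = 0.531) on 24 to 97 reads. The ratio of EIF4G2 to EIF4G1 ran from 22.8 to 42.9 on flow cell A and from 11.8 to 27.3 elsewhere, a difference of 1.06 in mean log2 ratio (exact permutation, two-sided, p = 0.00404; 0.0323 after adjustment over the 8 ratios).

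EIF4A1, the helicase that unwinds the leader, had counts of 505, 184, 131 and 246 in cats 11, 23, 30 and 31 and 68.1 to 132 (median 108) in the others. Cat 11 was far above the rest and cat 30 lay within the range of the other flow cells. The log2 difference was 1.17 ± 0.29 (SE; limma, adjusted p = 0.0309), and without cat 11 it was 0.80 with an adjusted p of 0.155. EIF4A2, the close relative of EIF4A1 with which it may share reads, had 0.36 (limma, adjusted p = 0.456). The ratio of EIF4A2 to EIF4A1 ran from 0.239 to 0.756 on flow cell A and from 0.388 to 2.06 elsewhere (two-sided exact permutation p = 0.131). EIF4E, the cap-binding protein itself, had a log2 difference of 0.73 (limma, adjusted p = 0.113), and EIF4B, which stimulates the helicase, had -0.04 (limma, adjusted p = 0.928).

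The eIF4E-binding proteins did not pass the test. EIF4EBP1 had 617 in cat 11, 177 in cat 23, 203 in cat 30 and 445 in cat 31 and 75.7 to 354 (median 123) in the others, with a log2 difference of 1.11 (limma, adjusted p = 0.117). EIF4EBP2 had 0.31 (limma, adjusted p = 0.319). EIF5A, which helps ribosomes through runs of proline, lay higher on flow cell A without overlap, at 258 to 502 against 125 to 257, and missed the threshold (log2 difference 0.78; limma, adjusted p = 0.0669). EIF6, which keeps the large subunit from joining early, had 0.68 (limma, adjusted p = 0.208). Of the enzymes that modify elongation factors, EEF2KMT had 2.17 on few reads (limma, adjusted p = 0.122) and EEF2K, the kinase that inhibits eEF2, had 0.17 (limma, adjusted p = 0.863).

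**Figure D4:**
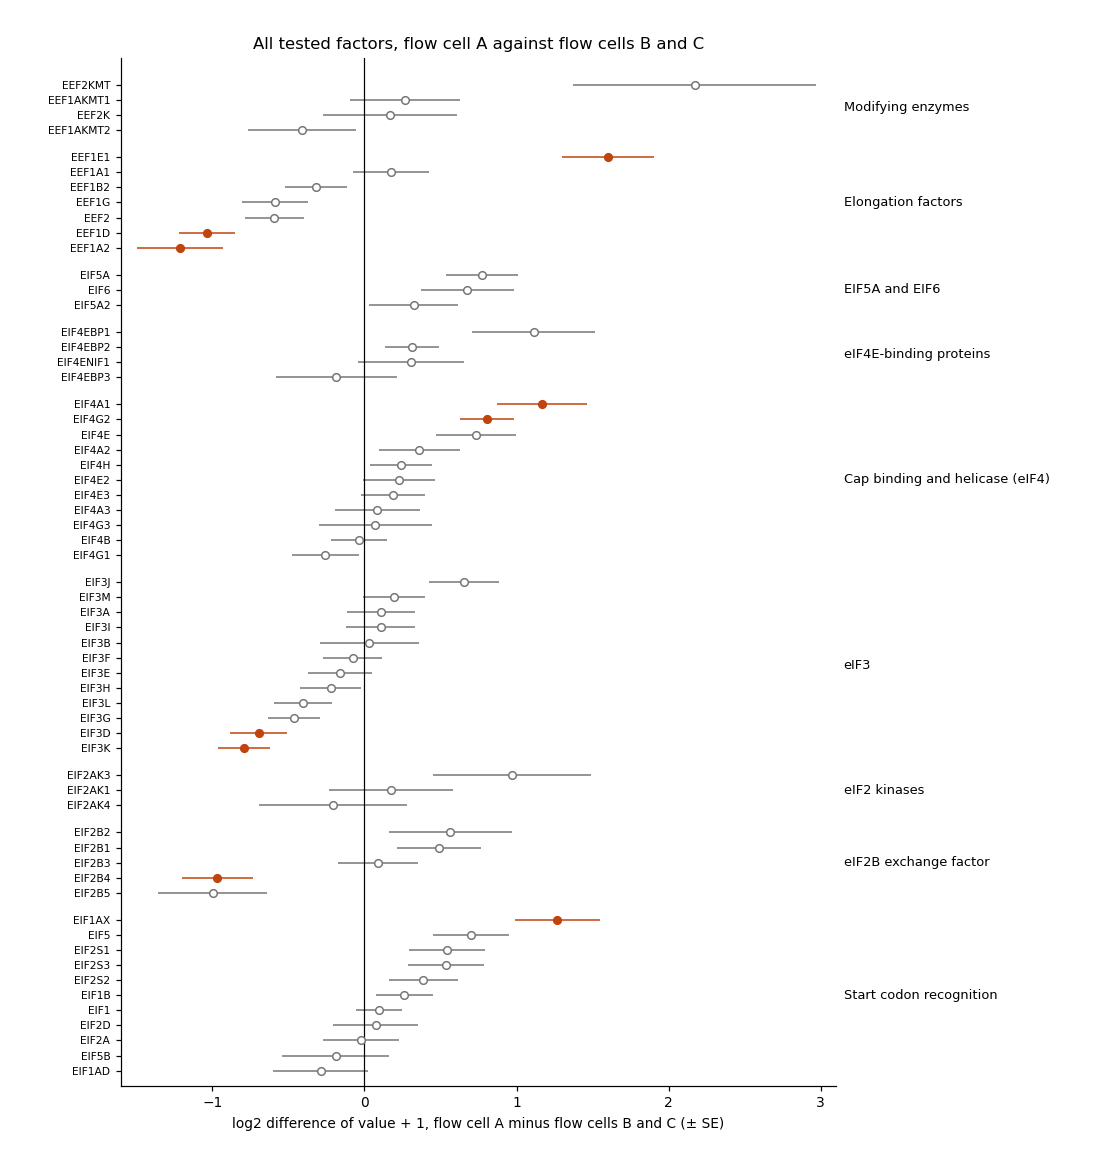
Log2 difference of value + 1 between flow cell A and flow cells B and C (horizontal axis) with its SE as a bar for each of the 60 tested factors, grouped by role. Filled points passed the test (adjusted p under 0.05), and these run from -1.21 for EEF1A2 to 1.60 for EEF1E1.

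The other genes of the pathway came from 5 lists. Of 6 tested genes of termination and recycling, 1 was higher on flow cell A, namely ABCE1, which splits ribosomes after termination (log2 difference 0.81; limma, adjusted p = 0.0474). None of 9 genes of poly(A) binding and mRNA recruitment, 13 of 14 listed genes of signalling to translation that were tested, 4 of 6 listed genes that modify eIF5A and eEF2, or 8 mitochondrial translation factors passed. Their medians were 0.32 for termination and recycling, 0.27 for poly(A) binding, -0.34 for signalling, -0.15 for the modifying genes and -0.28 for the mitochondrial factors.

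Markers of cell types moved with the flow cell as well. The 5 smooth muscle and pericyte markers took 0.0418% to 0.105% of reads on flow cell A and 0.00842% to 0.0284% elsewhere, and TAGLN and CNN1, of 4 tested, passed the test with log2 differences of 2.63 and 5.90. Of 6 fibroblast markers, COL1A1 and COL3A1 were higher, by 2.63 and 1.84, while the list took 0.0884% to 0.301% of reads on flow cell A and 0.0208% to 0.148% elsewhere. Of 6 tested cardiomyocyte markers, TNNT2, TNNI3 and MYL3 were lower, by -1.05, -1.64 and -1.11. ACTC1, MYL2 and RYR2 did not pass, at 0.59, -0.16 and -0.51. The cardiomyocyte list took 9.78% to 13.9% on flow cell A and 9.30% to 14.8% elsewhere. No endothelial marker of 5 tested passed (0.0353% to 0.0762% against 0.0231% to 0.0894% of reads). Macrophage and other leukocyte markers took 0.00625% to 0.0203% against 0.00297% to 0.0434%, with LYZ at 0 in every library. Adipocyte markers reached 0.00195% and red cell markers 0.00451% of reads at most. The 2 skeletal muscle markers in the table took 1.51% to 2.22% against 0.558% to 1.85%, and the 1 tested did not pass. The part of these cell types in the differences between flow cells was not tested.

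Flow cells B and C were then compared with each other. None of the 60 factors passed the test (limma; 0 of all 8715 genes, 0%), and 5 had an unadjusted p under 0.05, which is 8.33% of them against 7.87% of all tested genes; edgeR and DESeq2 also called none of the factors. All 5 lay higher on flow cell B. EIF2S3, the gamma subunit of eIF2 that holds the GTP, had counts of 227 to 354 on flow cell B and 115 to 209 on flow cell C, and a log2 difference of 0.70 (limma, adjusted p = 0.474). The other 4 were EIF4EBP3 with 1.03, EIF2AK4 with 1.21, EIF3H with 0.48 and EIF3B with 0.72 (limma, adjusted p from 0.508 to 0.625). EIF4E had -0.58 (limma, adjusted p = 0.632). The median log2 difference was 0.10 over the factors and 0.00 over all genes, and 11 of 12 eIF3 subunits lay higher on flow cell B. In CPM, 9 of the 60 factors changed sign in this comparison and the median over the factors was 0.01. Markers of cell types lay apart here too, although none passed the test. All 6 fibroblast markers were lower on flow cell B (median log2 difference -1.44), 4 of them with an unadjusted p under 0.05 from limma. Medians were -0.13 for cardiomyocyte, -0.18 for endothelial, -0.32 for smooth muscle and 0.24 for leukocyte markers.

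The second comparison asked whether the factors differ between the cardiac outcomes. It set 6 cats with congestive HF against 3 with ATE, of which each flow cell held 1. The paper also lists heart failure for cat 10, and its figures describe the ATE group as HF with ATE. The comparison is thus not one of heart failure present against absent. No factor passed the test with limma (0 of 8715 genes, 0%), edgeR or DESeq2. With an unadjusted p under 0.05 there was 1 factor, 1.67% of them against 4.41% of all tested genes. The median log2 difference was 0.21 over the factors and -0.00 over all tested genes, and 46 of 60 factors (76.7%) lay higher in congestive HF, against 49.8% of all genes. The initiation groups lay mostly to this side, with medians of 0.22 for start codon recognition (10 of 11 above 0), 0.28 for eIF2B, 0.12 for eIF3 (10 of 12 above 0) and 0.23 for the eIF4 factors (9 of 11 above 0), whereas the elongation factors had 0.05. With flow cell in the model the median of the factors less that of all genes was 0.17, and it was 0.15 to 0.26 when each library was left out in turn.

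The factor with the smallest p was EIF4EBP1, the inhibitor of eIF4E. Its counts in congestive HF ran from 109 through a median of 227 to 617, the highest in cat 11, and in ATE they were 136 in cat 10, 177 in cat 23 and 75.7 in cat 38. The groups overlapped, and the log2 difference was 1.08 ± 0.47 (SE; limma, adjusted p = 0.960). Within the flow cells the difference was 1.10 on A (3 cats against 1), 0.26 on B (2 against 1) and 1.45 on C (1 against 1). Markers of cell types also lay apart between the outcomes, although none passed the test. The median log2 difference was 0.70 over the 4 tested smooth muscle markers (3 above 0), -0.28 over 6 cardiomyocyte markers (6 below 0) and -0.60 over 6 fibroblast markers (5 below 0). Their part in the values of the factors was not tested.

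Next came the enzymes that act on eEF2. EEF2KMT had 2.36 to 26.3 (median 16.3) in congestive HF and 0 to 10.3 in ATE, on 0 to 47 reads, with a log2 difference of 1.69. EEF2K, which slows elongation by phosphorylating eEF2, had 4.29 to 10.1 (median 8.70) against 2.25, 2.69 and 5.88, on 2 to 21 reads, with a difference of 1.03. Within the flow cells EEF2K had 1.44, 1.57 and, on flow cell C, -0.38, whereas EEF2KMT had 1.83, 2.47 and 0.57. Both rest on few reads, and the groups overlapped.

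EIF2AK4 lay the other way, at 7.18 to 21.8 (median 9.78) in congestive HF and 22.5, 13.4 and 20.6 in cats 10, 23 and 38, with a difference of -0.75. It was below 0 within each flow cell, at -0.50, -0.61 and -1.17. EIF4E3, a cap-binding relative of eIF4E, had 99.9 to 152 against 81.2, 114 and 83.1, a difference of 0.44. EIF2B3, the gamma subunit of eIF2B, had 70.9 to 145 against 60.9, 52.4 and 115, a difference of 0.50, and within flow cells A, B and C it had 1.07, 0.53 and -0.16. All of these had a limma adjusted p of 0.960. Only EIF4B, at 137 to 200.1 in congestive HF and 124 to 134 in ATE, did not overlap between the outcomes (1.18% of all genes lay higher in this way), with a log2 difference of 0.28.

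Among the elongation factors, EEF1A1 had a log2 difference of 0.26 ± 0.32 (SE) and EEF1A2 of -0.31 ± 0.51 (SE; limma, adjusted p = 0.979 and 0.985). EEF1A2 counts in congestive HF ran from 1354 in cat 11 to 9904 in cat 15, which enclosed the ATE counts of 6091, 4521 and 7538. Within flow cells the EEF1A2 difference was -0.70 on A, 0.50 on B and -0.03 on C. None of the 8 ratios of related genes passed a test between the outcomes (two-sided exact permutation, adjusted p of 0.838 or more, the smallest possible unadjusted p being 0.0119). At that smallest p, no ratio could pass alone after adjustment over the 8 ratios. No gene of the 5 other pathway lists passed the test for this comparison, for flow cells B and C, for age or for fibrosis.

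**Figure D5:**
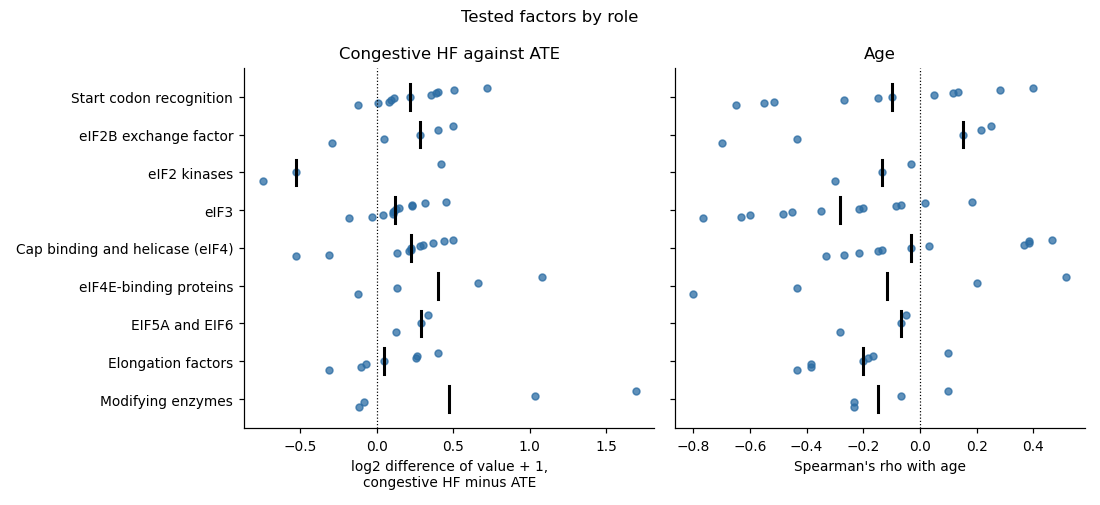
Each point is a tested factor, arranged by role, with the median of the role as a vertical bar. The left panel gives the log2 difference of value + 1 between congestive HF (6 cats) and ATE (3 cats), and the right panel gives Spearman's rho with age (9 cats). No factor passed the test in either panel, and 46 of 60 factors lie above 0 on the left and 41 of 60 below 0 on the right.

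The third question was whether the factors follow age, for which 9 cats of known outcome had a value. No factor passed the test (Spearman with exact permutation; 0 of 8715 genes, 0%), and 3 had an unadjusted p under 0.05, 5.00% of them against 4.76% of all tested genes. With 9 cats, a gene could pass alone only if it followed age in perfect rank order. The median rho was -0.150 over the factors and -0.0167 over all genes, with 41 of 60 factors (68.3%) below 0 against 52.5% of all genes. Less the median of all genes, it was -0.133, and it was -0.0595 without cat 31, -0.0833 without cat 23 and -0.202 without cat 36. Negative values were found for 10 of 12 eIF3 subunits (median -0.283) and for 6 of 7 elongation factors (median -0.200). The depth of the libraries moved with age too, with a Pearson's r of -0.715 (exact permutation p = 0.0342) and a rho of -0.70 (exact permutation p = 0.0433) between log2 reads and age over the 9 cats, and an r of -0.913 or -0.873 without the 2 cats farthest from the median age, since 2 cats are equally far. The part of depth in these values was not tested.

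The lowest rho was that of EIF4ENIF1, which carries eIF4E into the nucleus (rho -0.80, exact permutation p = 0.0138, adjusted p = 0.837; Pearson's r -0.657, exact permutation p = 0.0564). Without the 2 farthest cats r was -0.438 or -0.787, and within flow cells it was -0.758 (exact permutation p = 0.0903). It rested on 13 to 110 reads. EIF3I had a rho of -0.767 (exact permutation p = 0.0214, adjusted p = 0.851) and an r of -0.759 (exact permutation p = 0.0195), on 207 to 872 reads. Its r was -0.811 or -0.529 without the 2 farthest cats and -0.855 within flow cells (exact permutation p = 0.0174). EIF2B2 had -0.70 (exact permutation p = 0.0433, adjusted p = 0.897) on 2 to 28 reads. EIF2D, which can place tRNA without eIF2, EIF3F and EIF3H followed with rho of -0.65, -0.633 and -0.60 (exact permutation, adjusted p of 0.911 or more).

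The last question was whether the factors follow myocardial fibrosis, in the 8 cats of known outcome that had a value. This trait is the fibrotic share of the muscle and fibrosis area after large fibrotic patches at the inner or outer border were excluded. No factor passed the test (0 of 8715 genes, 0%). With 8 cats, no gene could pass alone after adjustment over 8715 genes, even if it followed fibrosis in perfect rank order. An unadjusted p under 0.05 (exact permutation) was found for 3 factors, 5.00% of them against 2.83% of all tested genes. The median rho was 0.0357 over the factors and 0 over all genes, with 31 of 60 above 0. EIF4G1, the scaffold of the cap-binding complex, had a rho of -0.881 (exact permutation p = 0.00724, adjusted p = 1) and an r of -0.935 (exact permutation p = 0.00154), on 24 to 97 reads. Leaving out cats 23 and 15, whose fibrosis lay farthest from the median, gave an r of -0.774, and within flow cells it was -0.942 over 7 cats (exact permutation p = 0.00694). EEF1AKMT1, which methylates eEF1A, had a rho of 0.810 (exact permutation p = 0.0218, adjusted p = 1) and an r of 0.760 on 7 to 29 reads. EIF5A2 had a rho of 0.738 (exact permutation p = 0.0458, adjusted p = 1), but its r was 0.483 (exact permutation p = 0.233). EIF4G3 and EIF5 had rho of 0.667 and 0.643, and EIF2AK1 had -0.643 (exact permutation, adjusted p = 1 for each).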

How the data were processed

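Direct RNA libraries of 12 cats were analysed, 1 per cat. Base calling by the authors used Guppy; after a quality filter the reads were aligned to felCat9 by minimap2 and assigned to genes by featureCounts (tool names also in the submitters' processing notes). The authors deposited a signal value per gene, which is the read count divided by a size factor of the library: dividing by the smallest step of a library returned whole reads for 100% of its values (relative tolerance 1e-06), and recomputed median-of-ratios size factors differed by a relative 2.89e-15 at most.

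Groups were tested with limma 3.58.1 (R 4.3.3) on log2(value + 1) with a trend, and traits with Spearman's rho and exact permutation (Python 3.11.15, scipy 1.17.1, numpy 2.4.6, pandas 2.3.3), with Benjamini-Hochberg adjustment over the 8715 genes that reached 10 reads in 3 or more libraries of known outcome. Fold changes are on the log2(value + 1) scale, which understates those of low genes. Differences of ratios used exact permutation over libraries. edgeR 4.0.16 on the recovered reads called 435 genes for flow cell A, where limma called 446, and both called 9 of the factors. DESeq2 1.42.0, TMM, CPM, other pseudocounts (0.5 and 2) and filters, barcode or flow cell as covariates and each library left out were alternatives. The scripts were tested on simulated data.

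The sample labels give the cat number and flow cell. Outcome, age and fibrosis were looked up in the study's table by cat number. Each library is 1 cat, so the spread includes counting error, and intervals cover counting error only. The genes named are factors with an adjusted p under 0.05, or otherwise the 6 with the smallest p in a comparison, and a list of central factors. The factors, all gene lists and the contrast of flow cell A with the others were chosen with earlier results of these data known. Coordinates, lengths and sequences were not used here: the reference table is of a different assembly than the reads. Figures were drawn with matplotlib 3.10.9.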

Additional observations from a re-analysis of the deposited data

Results flagged for a closer look

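A library lying apart from the others of its group was looked for in 108 sets of values (the called factors, ratios of related genes and shares of reads by role, in each flow cell and in congestive HF). In 5 of them a library stood apart by Dixon's criterion, where chance gives about 5.4. The ratio of EEF1A2 to EEF1A1 in congestive HF was 3.77 in cat 15, and the next value was 1.58. On flow cell C, the eIF2 kinases took 0.00656% of reads in cat 38, and the next value was 0.00250%. On flow cell A, the eIF4 factors took 0.311% of reads in cat 11, and the next value was 0.208%. On flow cell C, cat 29 was lowest for the eIF4 factors, at 0.122% with 0.143% next, and for the enzymes that modify elongation factors, at 0.00252% with 0.00460% next.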

How the results depend on the processing

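In the comparison of flow cell A with the others, 7 to 11 factors were called under 11 of 12 alternatives that kept all flow cells or set A against B alone, and 2 (EEF1D and EEF1E1) with A against C alone, where 145 genes were called in all. A against B and A against C were added after seeing the data. Leaving out each library gave 1 to 9 factors and 51 to 501 of all genes, and DESeq2 gave 335 genes higher and 494 lower, against 446 in all. The cause was not tested. EEF1D passed in all 24 alternatives. EIF3D failed in 11 of 12 fits that left out a library and in 5 of 12 others, EIF4A1 in 4 and 2, EIF2B4 in 2 and 3, EEF1A2 in 2 and 2, EIF4G2 and EIF1AX in 2 and 1, EIF3K in 1 and 1, and EEF1E1 in 1 and 0, and no called factor changed sign. With each library left out, the difference in the log2 ratio of EEF1A2 to EEF1A1 was -1.62 to -0.99 (adjusted p 0.0485 to 0.194, exact permutation) and that of EIF4G2 to EIF4G1 was 0.94 to 1.25 (adjusted p 0.0242 to 0.0970, exact permutation). Between outcomes, the difference in the ratio of EIF4G2 to EIF4G1 was -0.075 to 0.39 and that of EIF1B to EIF1 was -0.10 to 0.15, so neither had a stable sign. Between flow cells B and C the median of the factors less that of all genes was 0.055 to 0.19, highest without cat 10. No factor was called for B against C, outcome, age or fibrosis under any alternative. DESeq2 called 23 genes between B and C and 1 between outcomes, and other alternatives 0 to 2. For age and fibrosis, Spearman tests that left out a cat could not have let any gene pass alone. With each library left out, the median of the factors less that of all genes was 0.018 to 0.16 for flow cell A and -0.20 to -0.06 for age. The median rho for fibrosis less that of all genes was -0.05 to 0.14 and changed sign. Low counts limit EEF2KMT, EEF2K, EIF2B2 and the eIF2 kinases. No paired analysis was possible because the groups share no replicate numbers.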
